A study of Rattus norvegicus with 20 samples.

Results

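The genes described here are those of hepcidin, iron handling and red cells in the liver of food-restricted rats: Hamp, Hbb, Alas2, Tf, Fth1, Ftl1 and Hmox1. Members were the array probe sets annotated to exactly 1 of these 7 genes. Hamp, Hbb, Alas2 and Hmox1 each had 1 such probe set, which made 4 of 15866 probe sets, and all 4 passed the filter on low signal. Tf, Fth1 and Ftl1 appeared only on probe sets that list other genes too, so no value could be given to these genes alone. Hamp had been picked for its dose slope at 1 week and its difference between durations, and Hbb for its difference between durations, so those values are descriptions and carry no test.

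Male Wistar rats, an outbred strain, received either a full diet or a diet cut by 5, 10, 20 or 30%, for 1 week or 1 month. Rats of all groups, controls included, went without food for 16 h before liver was sampled. RNA of 5 rats was pooled for each of the 10 combinations of diet and duration, and each pool was run on 2 arrays, which gave 20 arrays. The age label reads 6 weeks for the 1 week arrays and 9 weeks for the 1 month arrays. From these labels the age at which the diets began is uncertain. Signals are given on the log2 scale after quantile normalization, so 1 unit is a doubling, and the value of a pool is the mean of its 2 arrays. Each condition had a single pool, so p-values set a slope or step against the scatter of the 10 pools around it, and that scatter is not the spread between rats.

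Hepcidin, the product of Hamp, is a peptide hormone made by hepatocytes. It binds ferroportin, the cellular iron exporter encoded by Slc40a1, and causes its degradation, so less hepcidin lets more iron leave macrophages and gut cells. Its transcription in the liver responds to iron through bone morphogenetic protein (BMP) and SMAD signalling, to inflammation through interleukin-6 and STAT3, and is lowered when erythropoiesis is active. Alas2 is the erythroid form of the first enzyme of haem synthesis, Hbb a beta globin chain, and Hmox1 the inducible enzyme that breaks haem down. Transferrin (Tf) carries iron in plasma, and the ferritin chains Fth1 and Ftl1 store it.

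The promoters of Hamp and Hbb are printed to show the elements known to act in each, Hamp for its low signal at 1 week and Hbb as the member whose slope passed the test. Each runs 250 bases up to the transcript start, 5′ to 3′, from RefSeq on GRCr8. The Hamp sequence is chr1:95300272-95300521 and the Hbb sequence chr1:167663722-167663971, both on the minus strand and each directly before the first exon of its gene. In Hamp the capitals mark GGCGCC, the core of the BMP response element, and TTCTTGGAA, the STAT3 site. In Hbb they mark a CACCC box and 2 adjoining copies of CCAAT, the first on the opposite strand.
Hamp: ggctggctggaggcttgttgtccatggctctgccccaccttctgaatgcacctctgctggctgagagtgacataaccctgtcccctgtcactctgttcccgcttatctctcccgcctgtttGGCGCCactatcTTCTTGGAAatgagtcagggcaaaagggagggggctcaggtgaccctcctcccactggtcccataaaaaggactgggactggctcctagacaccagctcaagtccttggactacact
Hbb: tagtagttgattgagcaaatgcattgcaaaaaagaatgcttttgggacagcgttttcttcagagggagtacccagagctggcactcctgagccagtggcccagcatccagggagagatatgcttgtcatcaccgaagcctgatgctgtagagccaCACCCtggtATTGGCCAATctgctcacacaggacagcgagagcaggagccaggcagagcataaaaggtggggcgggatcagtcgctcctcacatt
The BMP letters lie 129 to 124 bases before the Hamp start and the STAT3 letters 117 to 109 bases before it. On either strand, GGCGCC was in 9.24% and TTCTTGGAA in 0.444% of 27457 such 250-base promoters, and 2 promoters, 0.00728%, held both. CACCC was in 49.4% and CCAAT in 34.3%. These matches describe the letters only, and the arrays did not measure binding.

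Hamp signal was lower in every restricted pool than in the control pool of the same duration. At 10, 20 and 30% restriction the gap to control was larger at 1 week, and at 5% it was larger at 1 month. At 1 week it was 10.23 in control, 10.05 at 5%, 8.36 at 10%, 8.52 at 20% and 6.36 at 30% restriction. The 30% pool was thus 14.7-fold below control, while the 10% and 20% pools were 3.65-fold and 3.28-fold below and the 5% pool 1.13-fold below. The decline was not even across levels: it came in a drop between 5 and 10% and another between 20 and 30%.

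At 1 month Hamp was 11.08 in control, 10.33 at 5%, 10.61 at 10%, 10.81 at 20% and 10.92 at 30%. Here the lowest pool was the mildest restriction, 1.68-fold below control, and the 30% pool was 1.12-fold below. Every array of the 1 month pools, from 10.28 to 11.16, lay above every array of the 1 week pools, from 6.35 to 10.27. In ascending order the pools were 30, 10, 20 and 5% and control at 1 week, then 5, 10, 20 and 30% and control at 1 month. The arrays of neighbouring pools did not overlap anywhere in this order, but the arrays of a pool share 1 RNA and their gap says nothing of the spread between rats.

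**Figure D1:**
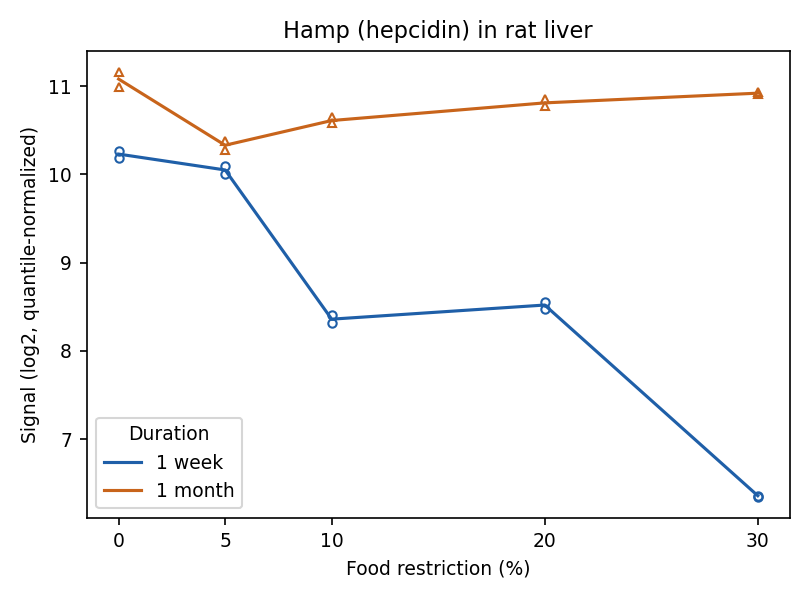
Hamp signal (log2, quantile-normalized, vertical) against food restriction in percent (horizontal). Open circles and triangles are single arrays at 1 week and 1 month, and lines join pool means. The 1 week line drops from 10.23 in control to 6.36 at 30%, while the 1 month pools stay between 10.33 and 11.08.

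Expressed as a slope over 30 percentage points, Hamp was lower by 12.7-fold at 1 week (log2 slope -3.66 ± 0.464, SE, n = 10 pools in the fit). At 1 month the slope was 0.14 ± 0.464, and the slopes differed by 3.81 ± 0.656. Averaged over restriction levels, signal was 4.14-fold higher at 1 month (log2 difference 2.05 ± 0.452). Without the 30% pool at 1 week the 1 week slope was -2.87 and the slope over both durations -0.68 in place of -1.76. Duration, age and any batch between the durations cannot be told apart.

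Hbb, a globin of red cells and their precursors, fell with restriction at 1 week. It was 11 in control, 10.84 at 5%, 10.76 at 10%, 10.29 at 20% and 10.30 at 30%. The 20 and 30% pools lay 1.63-fold and 1.62-fold below control, and none of their arrays overlapped those of the 3 milder pools. The slope was -0.76 ± 0.13 (SE, 95% interval -1.05 to -0.48), a 1.7-fold fall over 30 percentage points (limma adjusted p = 0.0331). Of the 3 members tested for this slope, Hbb alone passed, where 0.714% of all 9520 tested probe sets did (0.42% downward and 0.294% upward). The call was lost without any 1 of the 5 pools at 1 week or without the 20% pool at 1 month, with slopes from -1.05 to -0.68 over all pools left out and adjusted p from 0.0529 to 0.176 where lost. It was also lost on the signals as deposited (-0.69, adjusted p = 0.893).

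At 1 month Hbb was 10.17 in control, 9.93 at 5%, 10.05 at 10%, 10.06 at 20% and 10.15 at 30%, with a slope of 0.06 ± 0.13 (95% interval -0.22 to 0.35, limma adjusted p = 0.923). The slopes of the durations differed by 0.83 ± 0.183 (limma adjusted p = 0.903), a difference that did not pass. The slope over both durations was -0.35 ± 0.148 (limma adjusted p = 0.219, and 0.0475 without the 30% pool at 1 month). In the test of the difference of slopes no probe set passed by limma (0% of 9520), with 525 at an unadjusted p under 0.05. All 10 arrays at 1 week, from 10.26 to 11.02, lay above all 10 at 1 month, from 9.91 to 10.18. Averaged over levels, signal was 1.48-fold lower at 1 month (log2 difference -0.57 ± 0.106), the value for which Hbb was picked. In bulk liver, fewer red cells and less globin RNA per cell cannot be told apart. The Hbb probe set is of a kind that may bind related globin transcripts, so its value is uncertain between globin copies.

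Alas2, the erythroid haem enzyme, had its highest signal in the control pool at 1 week. Its pools were 5.85 in control, 5.27 at 5%, 5.57 at 10%, 4.80 at 20% and 4.37 at 30% at 1 week. At 1 month they were 4.33, 4.46, 4.64, 4.16 and 4.55 in the same order. In linear units the 1 month pools lay between 17.9 and 25, near the lowest tested mean of 11.7, with an SD between arrays of up to 0.442. A fall with restriction at 1 month may therefore be hard to see. The 4 restricted pools at 1 week were all below control, whereas 3 of 4 at 1 month were above it. Arrays of the durations overlapped, from 4.18 to 5.89 at 1 week and from 4.02 to 4.91 at 1 month. The slope at 1 week was -1.40 ± 0.283 (95% interval -2.02 to -0.78), 2.64-fold lower over 30 percentage points, and just missed the threshold (limma adjusted p = 0.057). Without the control pool at 1 month the slope was the same and the adjusted p by limma 0.0185. The slope at 1 month was 0.03 ± 0.283 (adjusted p = 0.985), and the difference of slopes, 1.42 ± 0.401, did not pass (limma adjusted p = 0.903). The difference between durations was -0.74 ± 0.202 (limma adjusted p = 0.181).

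**Figure D2:**
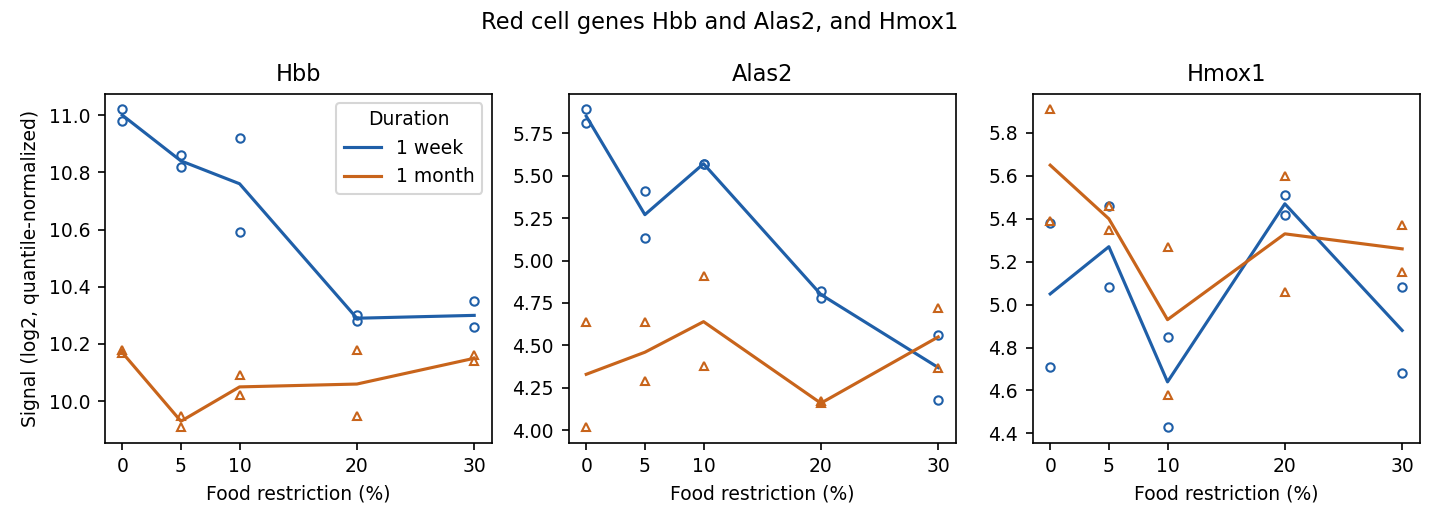
Signal (log2, quantile-normalized, vertical, a scale of its own for each gene) of Hbb, Alas2 and Hmox1 against food restriction in percent (horizontal). Open circles and triangles are arrays at 1 week and 1 month, and lines join pool means. Hbb arrays at 1 week all lie above those at 1 month, Alas2 drops from 5.85 to 4.37 at 1 week, and the Hmox1 durations overlap.

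Over the 10 pools, Pearson r was 0.91 between Hbb and Alas2, -0.23 between Hamp and Hbb and -0.11 between Hamp and Alas2. These values mix diet with duration, as Hamp was higher at 1 month (2.05) and Hbb (-0.57) and Alas2 (-0.74) were lower. At 1 month Hamp and Hbb had the same order of pools, 5% lowest, then 10, 20 and 30% and control. Alas2 there was lowest at 20% (4.16) and highest at 10% (4.64). At 1 week Hamp, Hbb and Alas2 were each highest in control and lower at 20 and 30% than at 5%. Correlation within a duration was not tested. Pools of a duration share their age label, so the correlations over all pools are descriptions. A further 5 probe sets each list 2 globin genes, 3 of them Hba-a1 and Hba-a2 and the other 2 Hbbl1 and Hbb-bs, and cannot be given to 1 gene. Their correlation with Hbb ran from 0.84 to 0.98, and some may bind the same transcripts. All 5 had a negative slope at 1 week, from -1 to -0.59, and 1 passed (an Hba-a1 and Hba-a2 set, -0.92 ± 0.146, limma adjusted p = 0.0259; lost without the control, 5, 20 or 30% pool at 1 week, where adjusted p ran from 0.0709 to 0.167, and on the signals as deposited, 0.678). At 1 month their slopes lay between -0.37 and 0.03, and none passed. Over both durations another Hba-a1 and Hba-a2 set passed, where 3.76% of all probe sets did (-0.43 ± 0.107, limma adjusted p = 0.0466). That call was lost without 7 of the 10 pools taken singly. All 5 were lower at 1 month, by -0.61 to -0.44. These differences carry no test here, since Hbb was picked for this difference and these sets vary with it. Hba-a3, an alpha globin gene with a probe set of its own, had a 1 week slope of -0.28 ± 0.237 (limma adjusted p = 0.63). At 1 week 3 of its restricted pools lay above control and 1 below.

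**Figure D3:**
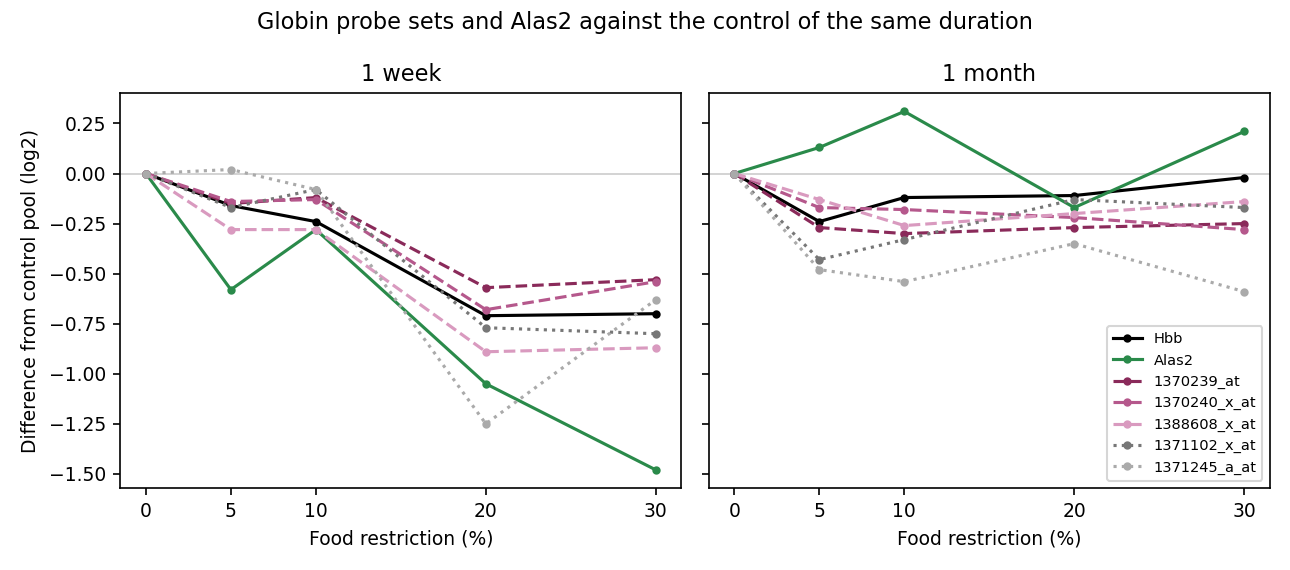
Difference from the control pool of the same duration (log2, vertical) against food restriction in percent (horizontal) at 1 week and 1 month. Lines are Hbb, Alas2 and the 5 globin probe sets that list 2 genes, each point 1 pool. At 20% and 30% for 1 week every line is below 0, and at 1 month the points lie between -0.59 and 0.31.

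Of 21 red cell marker genes on the array, 8 passed the signal filter. Hbb passed the 1 week slope downward and Epb41, a membrane skeleton protein that is also made outside red cells, rose with restriction over both durations (0.84 ± 0.169, limma adjusted p = 0.0215), where 3.76% of probe sets passed (1.8% upward and 1.96% downward). The Epb41 call was lost without the control pool of either duration or the 30% pool at 1 week, with adjusted p from 0.0737 to 0.104. The median 1 week slope of the 8 was -0.29, against -0.0033 for all tested probe sets. On their brightest probe sets, Alas2 (-1.40), Bpgm (-0.78), Car2 (-0.30), Hba-a3 (-0.28) and Gypc (-0.22) also had negative 1 week slopes. Epb41 (1.01) and Tfrc (0.82) had positive ones, and of the 8 only Hbb passed this slope. The other 13 marker genes, among them Gata1, Slc4a1, Ahsp and Rhag, lay under the filter, and Ahsp, Rhag, Ank1 and Hbe1 were below the lowest tested mean signal in all 10 pools. The summed signal of the 8 markers, most of it from Hbb, ran from 1680 to 2590 units at 1 week and from 1370 to 1670 at 1 month. Hepatocyte markers summed to between 53100 and 54800 units at 1 week and 53600 and 55000 at 1 month. Quantile normalization gives the brightest probe sets nearly fixed values, and Alb, among these markers, had a 1 week slope of 5.8e-15. The hepatocyte sums therefore say little of hepatocyte content. The single leukocyte marker and the platelet markers ran from 163 to 206 and from 42.9 to 57.8 units over all pools. Stellate cell and fibroblast markers summed to between 662 and 749 units at 1 week and 489 and 557 at 1 month, lower at 1 month as Hbb was. Of these 10 genes Col3a1, a fibrillar collagen, passed for duration (-0.63 ± 0.0696, limma adjusted p = 0.00863; 0.593 on the signals as deposited). The single bile duct marker ran from 44.4 units in control to 28.7 at 20% and 37 at 30% at 1 week, and from 46.3 in control to 24.7 at 30% at 1 month, and did not pass. The part of these other cell types in the member values was not tested. The part of blood content in the Hbb and Alas2 values was not tested.

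Hmox1 showed no ordered change with diet. Its pools were 5.05 in control, 5.27 at 5%, 4.64 at 10%, 5.47 at 20% and 4.88 at 30% at 1 week, and 5.65, 5.4, 4.93, 5.33 and 5.26 at 1 month. The arrays of a pool differed by up to 0.489 (SD), against ranges over the pools of 0.82 at 1 week and 0.72 at 1 month. The slope over both durations was -0.13 ± 0.238 (95% interval -0.65 to 0.38, limma adjusted p = 0.826), and it did not pass in any of the 6 comparisons. The interval at 1 week, -0.79 to 0.74, leaves room for changes of either sign. None of the 9 tested genes of haem and haemoglobin clearance, Hmox1 among them, passed any limma comparison (2 had an unadjusted p under 0.05 in the trend over both durations and 3 in the 1 week slope), and their median slope over both durations was -0.04. That list includes Hp and Hpx, plasma scavengers of haemoglobin and haem, with slopes of 0.04 ± 0.0528 and -0.04 ± 0.0548 (limma adjusted p = 0.781 and 0.747). Whether quantile normalization held their values nearly fixed, as it did for Alb, was not tested.

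None of the shared probe sets of transferrin and the ferritins passed any of the 6 comparisons. The set for Tf and Srprb ran from 12.90 to 12.95 over the 10 pools, and the set for Fth1 and its pseudogene Fth1-ps5 from 11.63 to 11.87. Quantile normalization gives the brightest probe sets nearly fixed values, and in several pools both arrays of the Tf and Srprb set had the same value. Its narrow range was thus partly set by the processing. The set for Ftl1 and 4 other ferritin light chain entries ran from 9.93 to 10.35. These are signals of mixed or uncertain origin and none is a value for the named gene.

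Ferroportin (Slc40a1), the target of hepcidin, rose with restriction in the fit over both durations and was the only 1 of 15 tested genes of iron uptake, storage and export to pass upward over both durations (none passed downward), where 3.76% of all probe sets passed and 1.8% upward. Its brightest probe set was 6.97 in control, 7.27 at 5%, 7.22 at 10%, 8.01 at 20% and 8.10 at 30% at 1 week. At 1 month it was 7.03, 7.72, 7.83, 7.86 and 8.13 in the same order. All 8 restricted pools were above control, and at 1 month the 5% pool was already 1.62-fold above it, whereas at 1 week the larger step lay between 10 and 20%.

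The slope of this Slc40a1 probe set was 1.04 ± 0.167, a 2.06-fold rise (limma adjusted p = 0.00886, and 0.0524 without the 30% pool at 1 week). A second set rose by 0.86 ± 0.192 (limma adjusted p = 0.0317; lost without 6 of the 10 pools, with adjusted p up to 0.113). The third had a slope of 0.70 ± 0.195 and did not pass (limma adjusted p = 0.0699). The 1 week slope of the first set was 1.22 ± 0.235 (adjusted p by limma 0.0454, lost without 8 of the 10 pools) and its 1 month slope 0.86 ± 0.235 (0.227). On the signals as deposited the slope over both durations was 1.14 (adjusted p = 0.102).

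Markers of liver endothelial cells, taken as a sum, moved in the same direction as Slc40a1. The summed signal of 9 endothelial markers was 375 units in control, 425 at 5%, 394 at 10%, 468 at 20% and 471 at 30% at 1 week, and 303, 395, 418, 419 and 461 at 1 month. Of the 9, Ehd3 had a positive slope over both durations (1.17 ± 0.21, limma adjusted p = 0.0135; 0.0677 without the 30% pool at 1 week). It lay above control in 5 of 8 restricted pools and below it in 3, and its step did not pass (0.42 ± 0.33, limma adjusted p = 0.544). Kdr, a receptor for vascular endothelial growth factor, rose as a step (0.60 ± 0.108, limma adjusted p = 0.00899; 0.215 without the control pool at 1 month). The 10 markers of Kupffer cells, the liver macrophages, summed to between 1490 and 1650 units at 1 week and 1430 and 1710 at 1 month. Of these, Cd14, a lipopolysaccharide co-receptor, rose over both durations (1.01 ± 0.168, limma adjusted p = 0.0101; 0.0935 on the signals as deposited). The median slope was 0.27 for the endothelial and 0.19 for the Kupffer cell markers, against 0.0034 for all tested probe sets. Slopes over both durations were positive for 7 of the 9 endothelial and 8 of the 10 Kupffer cell markers. Tie1 (-0.37) and Stab1 (-0.18) of the endothelial list went the other way. So did Lyz2 (-0.42, limma adjusted p = 0.128) and Csf1r (-0.03) of the Kupffer cell list, and none of these passed the trend. The part of these cells in the Slc40a1 values was not tested.

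Tfrc, the receptor that takes up transferrin-bound iron, had a U-shaped course that no fitted contrast describes. Its brighter probe set was 7.57 in control, 6.62 at 5%, 6.52 at 10%, 7 at 20% and 8.10 at 30% at 1 week. At 1 month it was 7.44, 6.79, 7.07, 7.18 and 7.74. The 5, 10 and 20% pools were below control and the 30% pool above it at both durations, and the same held on the second Tfrc probe set. Arrays of a pool differed by up to 0.386 on the first set and 0.796 on the second. The straight-line slope was 0.66 ± 0.345 and did not pass (limma adjusted p = 0.336). This shape was picked out after its values were seen and was not tested.

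**Figure D4:**
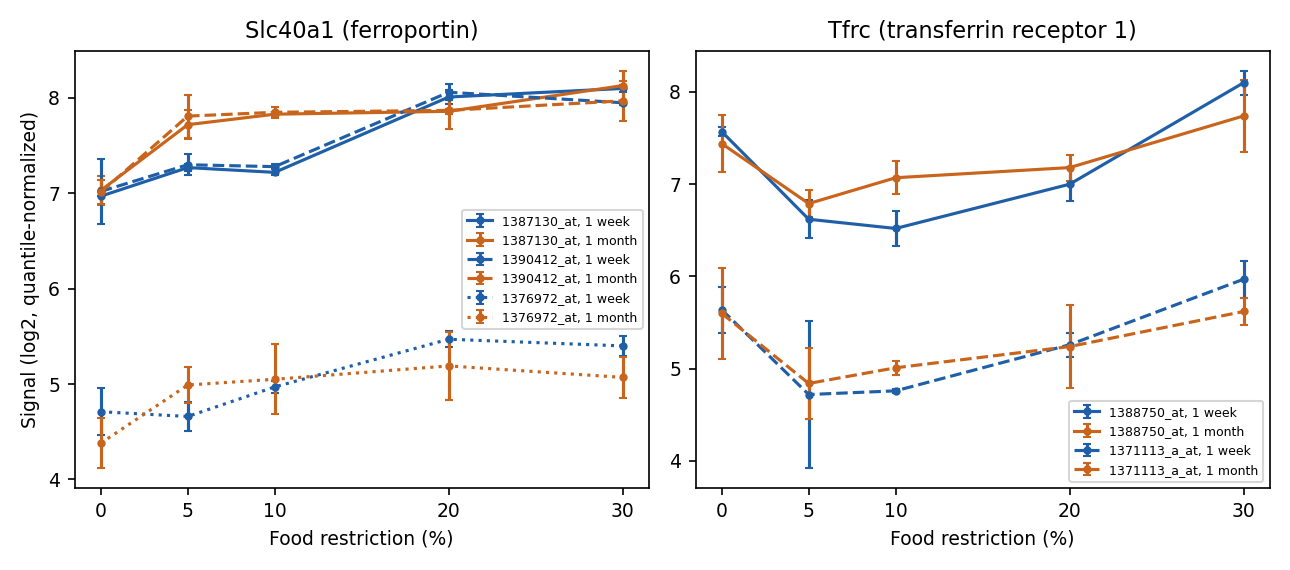
Signal (log2, quantile-normalized, vertical) of 3 Slc40a1 and 2 Tfrc probe sets against food restriction in percent (horizontal). Points are pool means, bars the SD between the 2 arrays of a pool, and colours the duration. The brightest Slc40a1 set rises from 6.97 to 8.10 at 1 week and from 7.03 to 8.13 at 1 month, and Tfrc dips at 5 and 10% and is highest at 30%.

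Steap3, an endosomal reductase for iron taken up with transferrin, was lower in the restricted pools as a step of -0.77 ± 0.19 (limma adjusted p = 0.0337), where 5.27% of probe sets passed (2.11% downward and 3.16% upward). The call was lost without the control pool of either duration, the 10% or the 20% pool at 1 month, with adjusted p up to 0.518. The other iron genes, among them the ceruloplasmin gene Cp and the iron sensors Aco1 and Ireb2, did not pass in any comparison.

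Of 23 tested genes of hepcidin control, Hamp itself among them, Il6st alone passed upward over both durations and none passed downward, a share near the 3.76% of all probe sets that passed. The list's median slope was -0.01, against 0.0034 for all tested probe sets. Il6st encodes gp130, the signalling subunit of the interleukin-6 receptor, and its 3 probe sets rose by 0.55 ± 0.136, 0.48 ± 0.121 and 0.75 ± 0.189 (limma adjusted p = 0.0458, 0.0493 and 0.049). Each call was lost without 7 or 8 of the 10 pools taken singly, with adjusted p up to 0.238. Stat3, the transcription factor of that pathway, was lower as a step on 1 of its 2 probe sets (-0.58 ± 0.148, limma adjusted p = 0.0407; lost without 6 of the 10 pools, with adjusted p up to 0.432). Apart from Orm1, which was higher at 1 month (0.43 ± 0.0562, limma adjusted p = 0.0108), where 0.336% of probe sets passed (0.168% in each direction), none of 18 acute phase genes passed any limma comparison (3 had an unadjusted p under 0.05 in the trend and 5 in the step).

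The BMP arm held no gene that passed. Id2 came nearest in the 1 week slope on its brighter probe set, at -1.04 ± 0.348 (limma adjusted p = 0.18), and on the other set its pools were 6.09 in control, 6.02 at 5%, 5.37 at 10%, 4.88 at 20% and 5.34 at 30% at 1 week. On the brighter set 1 restricted pool at 1 week lay above control. The 1 month slopes of the brighter and the other set were 0.32 ± 0.348 and 0.34 ± 0.352, and neither passed. Bmp6, a ligand that raises hepcidin, had a slope over both durations of 0.50 ± 0.217 (limma adjusted p = 0.233), and Hfe, a membrane protein of iron sensing, of 0.02 ± 0.123 (adjusted p = 0.944). Smad7, a feedback inhibitor, had -0.82 ± 0.278 (limma adjusted p = 0.128) with 2 pools below the lowest tested mean signal. Tfr2, Tmprss6, Hjv and Erfe were not analysed here.

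Among 10 tested genes of haem synthesis, 1 passed the trend and 3 the step, where 3.76% and 5.27% of all probe sets did. Tmem14c, a porphyrinogen transporter, rose with restriction (0.63 ± 0.156, limma adjusted p = 0.0466) and as a step (0.61 ± 0.124, adjusted p = 0.0151). Clpx, a mitochondrial chaperone that acts on the first enzyme of haem synthesis, and Ppox, a late enzyme of the pathway, were lower in restricted pools, with steps of -1.17 ± 0.258 and -0.92 ± 0.204 (limma adjusted p = 0.0219 and 0.0225). Ppox lost its call without the control pool at 1 week (adjusted p = 0.377). Clpx lost it without either control pool (0.134 and 0.257), as did the Tmem14c step (0.12 and 0.214). The Tmem14c trend was lost without 7 of the 10 pools, with adjusted p up to 0.19. Alas1, the liver form of the enzyme that Alas2 encodes in erythroid cells, had a 1 week slope of 1.11 ± 0.364 (limma adjusted p = 0.172), opposite in sign to that of Alas2. On the signals as deposited and with median centring alike, the calls named above for Slc40a1, Il6st, Epb41, Stat3, Steap3, Orm1 and the Tmem14c trend kept their direction and did not pass, with adjusted p from 0.0512 to 0.694. The Tmem14c step was lost with median centring (0.0631) and the Ppox step on the signals as deposited (0.167).

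**Figure D5:**
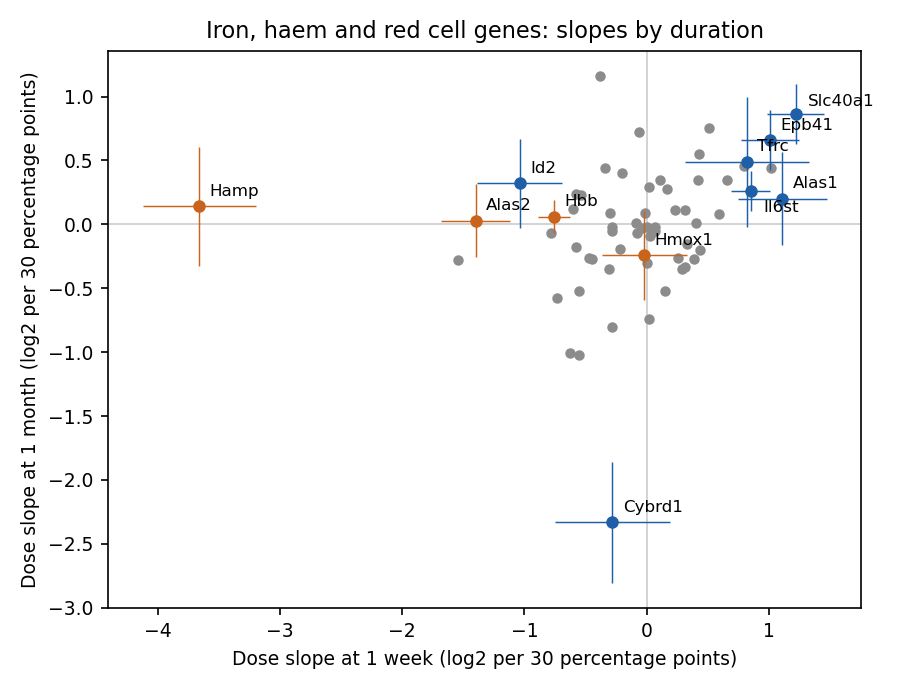
Dose slopes at 1 month (vertical) against those at 1 week (horizontal), both log2 change per 30 percentage points, for 63 tested genes of the iron, haem and red cell lists by their brightest probe set. Labelled genes have SE bars, with Hamp, Hbb, Alas2 and Hmox1 in orange. Hamp stands at -3.66 and 0.14, and Slc40a1 at 1.22 and 0.86.

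Cybrd1, an iron reductase, had the lowest 1 month slope among these genes, -2.33 ± 0.472 (limma adjusted p = 0.143), but 1 of its pools was below the lowest tested mean signal, and with that pool raised to it the slope was -0.87. No gene of these lists passed the 1 month slope by limma, which 0.0315% of all probe sets did, with 995 at an unadjusted p under 0.05.

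Over the 10 pools, the genes whose pattern was most like that of Hamp among 7051 candidates were Glo1 (Pearson r = 0.95), Fam171a1, Snph and C12h12orf76 (0.92 each) and Fbln5 (0.91). The most opposed were Ube2g1 (-0.94), Scpep1 and Fahd2a (-0.92 each). The 30% pool at 1 week, where Hamp was lowest (6.36), weighs heavily in these values. By Spearman rank correlation they were 0.72 for Glo1, 0.7 for Fam171a1, 0.78 for Snph, 0.95 for C12h12orf76 and 0.83 for Fbln5. For Ube2g1, Scpep1 and Fahd2a they were -0.76, -0.94 and -0.95. Glo1 moved over a much smaller range, from 7.96 to 8.24, and Fam171a1, Snph and Fbln5 had 2, 3 and 4 pools below the lowest tested mean signal. For Hbb they were C4bpa (0.95), Blmh (0.94), Gulo and Cilk1 (0.93 each) and Gmcl1 (0.92), and the most opposed Serpina4 (-0.94), Cyp2c23 and Bag3 (-0.93 each). These are likenesses of shape only, picked from many candidates over few pools.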

How the data were processed

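Liver RNA was measured on Affymetrix rat arrays. The intensity values, 1 per probe set on a linear scale, were deposited by the authors. Per the submitters' processing notes the tool was MAS5, with its version and scaling target not given in the sources used here. RNA was pooled before labelling of 10 ug, per the labels' protocols, which name 2 different extraction kits.

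The 2% trimmed mean of the deposited signals ran from 38.4 to 98.8 units over the 20 arrays. The 32 values of 0 were set to the array's smallest positive value, signals were turned to log2 and quantile-normalized, and 57 control probe sets were then left out. The upper 60% by mean log2 signal was tested (9520 of 15866 probe sets; lowest mean 3.54, or 11.7 units). The number of arrays limits the precision. The 2 arrays of a pool were averaged (n = 10 pools). Models were fitted with lmFit in limma 3.58.1 (R 4.3.3) and moderated with eBayes, letting the variance follow mean signal. Two-sided p-values were adjusted by Benjamini-Hochberg across the tested probe sets, with a threshold of 0.05. The scripts were tested on simulated data.

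The fits gave the dose trend over both durations with duration as a covariate, a slope for each duration and their difference, a step between restricted and control pools, and the difference between durations. Slopes are log2 changes over 30 percentage points. Array numbers did not pair arrays across pools (median correlation of deviations 0.03, range -0.05 to 0.12).

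Members and gene lists were chosen with earlier results of these data known. Members are all named. From the lists, genes past the threshold and up to 3 of smallest p were eligible, with others named as not passing; Tfrc, Id2, Alas1 and Cybrd1 values beyond this were picked after they were seen. Likeness was ranked by Pearson r of pool means. Promoters came from RefSeq (GRCr8); Hmox1 and Alas2 promoters were not used here. Alternatives are given in the closing section.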

Additional observations from a re-analysis of the deposited data

How the results depend on the processing

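Over 24 results for the 4 member genes, 469 of 498 values under alternatives kept direction and side of the threshold (or, untested, moved by less than the spread between replicates), 12 lost the call, 5 gained it, 12 moved and 0 reversed. Among tested member results the Hbb slope at 1 week alone passed in the main fit. Most of the 469 values thus belonged to results that did not pass or were untested. All 12 lost calls were of that Hbb slope, which kept its call in 9 of 21 alternatives. The Hbb slope at 1 week also lost its call with median centring (adjusted p = 0.0583), no filter (0.0521), no variance trend (0.153), the GAPDH 3′ to 5′ ratio as a covariate (0.109) and without replicate 1 of each pool (0.0849). The Alas2 slope at 1 week passed with 16 units added before log2 (-0.94, adjusted p = 0.0472). With the GAPDH covariate, Hamp had a trend of -3.18, a 1 month slope of -0.98 and a slope difference of 3.13. That ratio lay between 1.30 and 1.61 over the pools. The cause of these changes was not tested.

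Of the counts of probe sets past the threshold, the dose trend's 358 (171 higher, 187 lower) became 58 on the signals as deposited (18 higher, 40 lower), 143 with median centring (27 higher, 116 lower), 108 with no variance trend and 3 with the GAPDH covariate. The 1 week slope's 68 became 43 as deposited, 32 with no filter, 0 with no variance trend and 3 with the GAPDH covariate. The 1 month slope's 3 became 0 with no variance trend and 0 with the GAPDH covariate, and the slope difference's 0 became 1 as deposited. The restriction step's 502 (301 higher, 201 lower) became 326 with median centring and 192 with no variance trend; as deposited it held 295 higher and 46 lower. The duration difference's 32 became 3 as deposited, 6 with median centring, 17 with no filter, 1 with no variance trend and 16 with the GAPDH covariate. As deposited, the median of all probe sets shifted to 0.11 in the trend and 0.25 in the step.

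Leaving out 1 array number or 1 pool gave 66 to 469 calls for the trend, 0 to 418 for the 1 week slope, 0 to 6 for the 1 month slope, 0 to 11 for the slope difference, 62 to 888 for the step and 5 to 34 for duration. With array number as a replicate block and pool as a random block, the 6 counts were 818, 546, 154, 2, 884 and 197 in that order. The arrays are technical repeats whose consensus correlation was 0.228, and the numbers do not pair arrays. In this block fit the Alas2 slope at 1 week had an adjusted p of 0.00439 and its duration difference 0.0295. Leaving control probe sets out before normalization was chosen after seeing the data and moved no member's call.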
